A study of Mus musculus with 60 samples.

Results

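The libraries described here are the striatum-like libraries of the series with the most and the least Slc17a7 transcript. Of 60 RNA-Seq libraries from mouse brain, 30 had a Slc17a7 level of at most 64.8 FPKM (fragments scaled to transcript length and to the size of the library) and the other 30 had at least 121 FPKM. The first 30 are called striatum-like and the others cortex-like, by this level and not by their labels. The striatum-like libraries were selected on Slc17a7 a further time: after each library was divided by a scaling factor, the 8 highest and the 8 lowest in Slc17a7 were taken as the high and the low libraries, 16 of the 60 in all. The 14 striatum-like libraries between them are called the middle libraries and were used in neither group. Slc17a7 was left out of every count below.

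Slc17a7 encodes the vesicular glutamate transporter VGLUT1, which loads glutamate into synaptic vesicles and is the main transporter of this kind in excitatory neurons of the cerebral cortex and hippocampus. The striatum has hardly any glutamatergic cell bodies of its own. Most of its neurons are GABAergic projection neurons of the direct pathway, with the dopamine receptor Drd1, or of the indirect pathway, with Drd2, and its glutamatergic input comes from axons of the cortex and thalamus. Neurod6 encodes a transcription factor of the basic helix-loop-helix family that marks excitatory neurons of the forebrain cortex. The comparison asks which other genes differed between striatum-like libraries with much and with little Slc17a7, and how the genes of cortical excitatory neurons stood among them.

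The study used mice with a deletion in exon 12 of the huntingtin gene, Htt, that mimics a human splice form (the Δ12 line). It also used mice of a line whose imprecise deletion served as a knockout (the KO line), and compared littermates within each line. All were of strain c57BL-6N and 3 months old, with no treatment named in the labels. The high libraries comprised 6 of the KO line labelled KO/+ (1 knockout allele) and 2 of the Δ12 line labelled Δ12/Δ12. The low libraries comprised 3 labelled +/+ and 3 labelled KO/+ of the KO line, and 2 labelled Δ12/Δ12. Labels of the low library counted as striatum KO/+ female 3 conflict with each other, and its genotype entry was followed here and in the comparisons by label below. The middle libraries comprised 9 labelled +/+, 3 labelled KO/+ and 2 labelled Δ12/Δ12. The knockout allele came from 1 founder line, and none of the 30 striatum-like libraries was labelled as a +/+ or heterozygous animal of the Δ12 line. All 30 cortex-like libraries were labelled Δ12 line, as +/+, heterozygous Δ12/+ or male Δ12/Δ12. Differences between the cortex-like and the middle libraries thus cannot be told apart from differences of labelled line and genotype.

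Several labels went against the data, so every group below is a set of libraries and its labels are given as labels only. The high libraries were labelled cortex in 4 of 8 cases, the middle in 6 of 14 and the low in 5 of 8, although Drd1 was at least 32.2 FPKM in all 30 striatum-like libraries and at most 18.9 FPKM in the cortex-like ones. The titles give the same animal number under both tissues, and by these numbers the 8 high libraries came from 5 labelled animals, the 8 low from 7 and the 14 middle from 10, of which 6 also gave a high or low library. By the same numbers, 1 labelled animal gave both a high and a low library. The 2 libraries of 1 labelled animal differed in whether Xist or Ddx3y was the higher in 7 of 15 cases, so the numbers do not identify animals with certainty. The sex label went with the sex-linked transcripts Xist and Ddx3y in 6 of 8 high, 5 of 14 middle and 6 of 8 low libraries. Ddx3y exceeded Xist in 5 of 8 high, 9 of 14 middle and 1 of 8 low libraries, and these are called Ddx3y libraries, the others Xist libraries. Scaled Slc17a7 had a median of 25.5 FPKM (10.2 to 69.6) in the 15 Ddx3y libraries. It was 10.3 FPKM (5.60 to 38.5) in the 15 Xist libraries. The ranking thus moved with the sex-linked transcripts, and several of the results are given within each kind as well. Htt, the targeted gene, ranged from 16.6 to 20.7 FPKM in the 12 striatum-like libraries labelled +/+ of the KO line and from 12.7 to 20.0 FPKM in the 12 labelled KO/+, and the ranges overlapped. The estimated depth was 16.4 to 23.6 M fragments in the high and 17.8 to 27.5 M fragments in the low libraries.

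**Figure D1:**
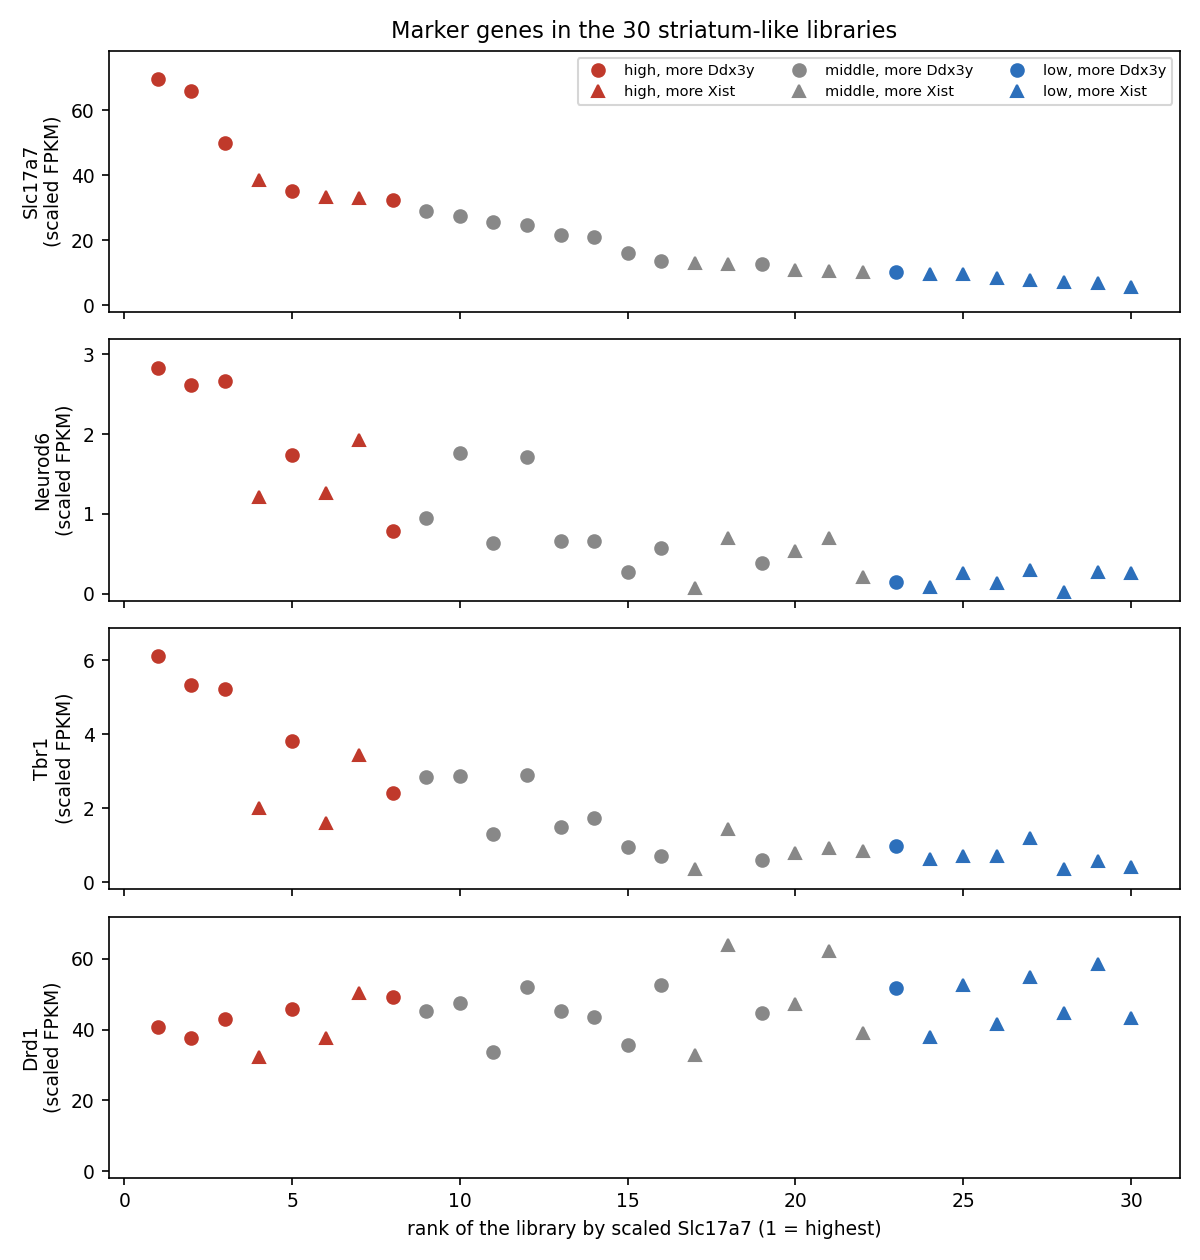
Scaled FPKM of Slc17a7, Neurod6, Tbr1 and Drd1 (vertical axes) in the 30 striatum-like libraries, ordered by their Slc17a7 rank (horizontal axis, 1 is the highest). Each point is 1 library, colours are the high, middle and low libraries, circles are Ddx3y libraries and triangles Xist libraries. Neurod6 and Tbr1 are high on the left, where Slc17a7 ranges from 32.4 to 69.6 FPKM, while Drd1 spans 32.2 to 63.9 FPKM with no gap between the groups.

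Scaled Slc17a7, the value that chose the libraries, was lowest at 32.4, median 36.8 and highest at 69.6 FPKM in the high libraries and 5.60, 8.06 and 10.2 FPKM in the low ones. The limits of the groups were not marked by a wide gap. The last high library had 32.4 FPKM and the first middle library 28.9 FPKM. At the other limit, the last middle library had 10.3 FPKM and the first low library 10.2 FPKM. The lowest cortex-like library had 104 FPKM after scaling. That every high library held less Slc17a7 than this follows from the split of the series by the same gene.

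Neurod6, the second marker, did not overlap between the groups. It was lowest at 0.785, median 1.84 and highest at 2.83 FPKM in the high libraries (mean 1.88 ± 0.764, SD, n = 8). In the low libraries it was 0.0277, 0.202 and 0.296 FPKM (mean 0.186 ± 0.1001, n = 8). Every high library lay above every low one, and the group means differed by 1.74 on the log2(FPKM + 0.5) scale used for all differences below, a scale that understates the change of genes at low levels. The gene lies at GRCm38 chr6:55677822-55681263. Because the libraries were chosen by Slc17a7 and the groups hold no independent replicates of a condition, differences between the high and low libraries are given as description, without a p-value.

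Of 15922 genes with a mean of at least 0.5 FPKM over the 16 libraries, 48 were higher in all 8 high libraries than in any low library, 0.301% of the genes tested, and 7 were lower in all 8, 0.044%. The median gene differed by -0.02. These shares are the background against which the members of each gene group are read. The filter took the mean of both groups together, so some higher genes passed it only through the high libraries. Among these were Neurod6, Neurod2 and Vip, with means of 0.186, 0.215 and 0.364 FPKM in the low libraries. Rtn4rl2, Prss12, Dkkl1, Bmp3, Bdnf, Sstr3, Col12a1, 9130024F11Rik and Gm28928 also had means under 0.5 FPKM there. All 7 lower genes had means of at least 4.63 FPKM in both groups. The excess of higher over lower genes thus rests in part on genes near the filter. With a minimum mean of 2 FPKM, 28 genes were higher and 7 lower without overlap.

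Among the 48 higher genes with an established name and a mean of at least 1 FPKM, the 10 largest differences were those of Rtn4rl2, Nr4a2, Tbr1, Neurod6, Neurod2, Cck, Nov, Prss12, Ipcef1 and Hs3st2. They include 3 transcription factors of the cortical excitatory lineage, since Tbr1 specifies deep-layer projection neurons and Neurod2 is a close relative of Neurod6. Tbr1 was lowest at 1.61, median 3.63 and highest at 6.11 FPKM in the high libraries and 0.369, 0.670 and 1.21 FPKM in the low ones, a difference of 1.75. Neurod2 was 0.967, 1.67 and 3.41 FPKM against 0.0913, 0.203 and 0.399 FPKM, a difference of 1.71. For both genes the lowest high library stood above the highest low library, and the 8 high libraries were the more spread.

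**Figure D2:**
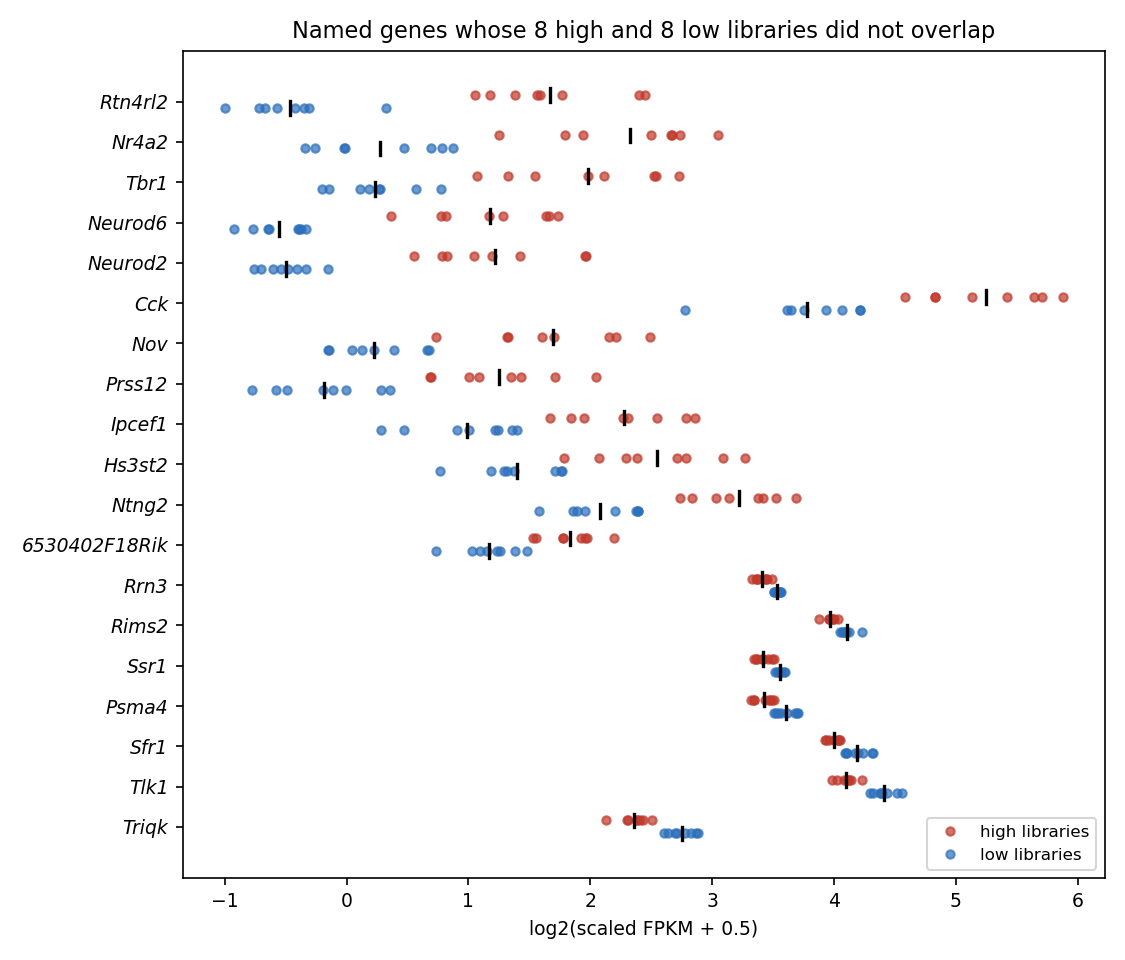
Levels as log2(scaled FPKM + 0.5) (horizontal axis) of the named genes whose groups did not overlap (vertical axis), in the 8 high (red) and 8 low (blue) libraries, each point 1 library and each black bar a group mean. The 10 genes with the largest higher levels, from Rtn4rl2 (2.14) to Hs3st2 (1.15), and the pair Ntng2 and 6530402F18Rik are wider apart than the 7 lower genes, which differ by -0.39 or less in size.

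Rtn4rl2, a Nogo receptor homologue on axons, had the largest difference, 2.14. It was 1.58, 2.48 and 4.96 FPKM in the high libraries and 0, 0.210 and 0.751 FPKM in the low ones, where 1 library labelled cortex KO-line +/+ male 2 stood apart at the upper end. Nr4a2, an orphan nuclear receptor that is strong in the claustrum, the deep insula and the subplate remnant of the cortex, was 1.87, 5.49 and 7.78 FPKM in the high libraries. In the low libraries Nr4a2 was 0.291, 0.691 and 1.33 FPKM, a difference of 2.05. In the cortex-like libraries it was lowest at 1.53, median 2.65 and highest at 4.45 FPKM, so the median high library held more of it than any cortex-like one. Cck, the cholecystokinin precursor made by many cortical neurons, was the most abundant of the 10, with 23.4, 38.4 and 58.3 FPKM against 6.37, 13.9 and 18.1 FPKM, a difference of 1.47. Nov, a secreted matricellular protein, differed by 1.46, Prss12, the secreted serine protease neurotrypsin, by 1.44, Ipcef1 by 1.29 and Hs3st2, a heparan sulfate sulfotransferase, by 1.15.

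The promoters of Slc17a7, Neurod6 and Neurod2 are shown because Slc17a7 ranked the libraries and because the others encode related factors that were set apart with it. Each spans 250 bases before to 50 bases after the RefSeq start site in GRCm38.p6, at chr7:45163671-45163970 on the plus strand, chr6:55681214-55681513 on the minus strand and chr11:98329596-98329895 on the minus strand. Capitals mark the E-box CAGATG, or CATCTG on the other strand, a hexamer bound by factors of this family.
Slc17a7: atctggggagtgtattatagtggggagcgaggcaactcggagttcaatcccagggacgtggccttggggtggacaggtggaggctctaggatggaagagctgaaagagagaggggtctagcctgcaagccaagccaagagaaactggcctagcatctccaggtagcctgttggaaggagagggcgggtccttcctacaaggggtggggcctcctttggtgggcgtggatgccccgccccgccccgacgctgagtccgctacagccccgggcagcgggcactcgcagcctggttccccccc
Neurod6: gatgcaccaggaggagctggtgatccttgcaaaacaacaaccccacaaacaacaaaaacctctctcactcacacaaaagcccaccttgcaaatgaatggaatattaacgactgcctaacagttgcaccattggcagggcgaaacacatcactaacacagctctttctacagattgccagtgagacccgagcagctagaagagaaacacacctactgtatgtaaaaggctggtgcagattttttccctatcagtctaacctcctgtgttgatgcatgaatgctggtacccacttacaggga
Neurod2: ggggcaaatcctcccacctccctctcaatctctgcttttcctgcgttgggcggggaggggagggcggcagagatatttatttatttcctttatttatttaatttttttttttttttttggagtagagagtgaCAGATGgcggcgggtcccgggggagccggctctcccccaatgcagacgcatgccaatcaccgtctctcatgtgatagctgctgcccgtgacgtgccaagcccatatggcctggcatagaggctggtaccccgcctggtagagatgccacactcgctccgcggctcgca
The window of Neurod2 held 1 such hexamer, and those of Slc17a7 and Neurod6 held none of these letters. Of the 48 higher genes, 37 matched a RefSeq promoter entry by symbol and 9 of them held the hexamer (24.3%), against 19.2% of the 27025 genes with an entry.

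Cortical excitatory genes formed the group with the most members set apart. Of the 12 listed genes besides Slc17a7, 10 passed the level filter, and all 10 had the higher mean in the high libraries. In 5 of them, Neurod6, Neurod2, Tbr1, Cck and Sv2b, the groups did not overlap, although Neurod6 and Neurod2 passed the filter only through the high libraries. The median difference of the 10 was 1.45, against -0.02 for all genes. Sv2b, a synaptic vesicle protein, differed by 0.50, with 21.7, 26.4 and 33.8 FPKM against 15.9, 19.9 and 20.2 FPKM.

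The other 5 members were higher on average with overlapping ranges. Among them, Slc30a3, the vesicular zinc transporter, differed by 1.52, Nptx1, a secreted pentraxin of excitatory synapses, by 1.35, Nrn1, a neurite growth protein, by 1.10, and Vsnl1, a neuronal calcium sensor, by 0.35. Emx1, a homeobox gene of the dorsal telencephalon, was under the filter but did not overlap, with 0.394, 0.643 and 1.34 FPKM against 0.0424, 0.127 and 0.284 FPKM. Neurod1, also under the filter, overlapped, at 0 to 0.330 FPKM against 0 to 0.298 FPKM.

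Genes named for cortical layers were not set apart in any of 3 lists. In the lists for the upper layers and for layer 5, none of the 9 and 7 genes tested was set apart in either direction, and the medians were 0.06 and -0.05. Differences ran from -0.12 for Rorb to 0.37 for Mdga1 in the upper layers, and Cux1 was 20.0, 23.3 and 24.2 FPKM in the high libraries and 21.1, 22.9 and 25.4 FPKM in the low ones. Fezf2, a determinant of layer 5 output neurons, had the largest difference of its list, 0.71, at 0.586, 1.03 and 1.79 FPKM against 0.177, 0.414 and 0.797 FPKM. In the list for layers 6 and 6b, 7 of 9 means were higher and the median was 0.26, with no gene set apart. Ctgf, a marker of layer 6b, was 2.47, 6.43 and 13.5 FPKM against 1.20, 2.29 and 4.33 FPKM, a difference of 1.26, Rprm differed by 0.79 and Cplx3 by 0.67. At the other end of that list, Tle4 differed by -0.21. The median gene of the upper layer and layer 5 lists was itself lower in the cortex-like than in the middle libraries, by -0.33 and -0.22 (Cux1 by -2.20). These lists are thus not shown to mark cortex in these data, and their medians are not read as a result about layers. In the same comparison the median was only 0.20 for the layer 6 and 6b list and 0.08 for the claustrum and insula list below.

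Genes enriched in the claustrum and the neighbouring insula were set apart in 3 of 6 cases, all higher, with a median of 0.34. Besides Nr4a2, Ntng2 and Gnb4 did not overlap. Ntng2, the axon guidance ligand netrin-G2, was 6.15, 9.11 and 12.4 FPKM in the high libraries and 2.49, 3.74 and 4.76 FPKM in the low ones, a difference of 1.14. Gnb4, a G protein beta subunit, differed by 0.38, with 10.2, 11.0 and 13.2 FPKM against 7.42, 8.29 and 9.78 FPKM. The remaining 3, Gng2, Lxn and Oprk1, overlapped, with differences from 0.10 to 0.29.

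Ntng2 and the transcript 6530402F18Rik, which differed by 0.67, were the 2 genes at least 0.5 higher without overlap that were lower in the cortex-like than in the middle libraries, by -1.28 and -0.51. They overlap on the genome, at chr2:29194541-29253005 and chr2:29245107-29253006, and whether fragments were assigned by strand is not given in the sources used here, so the pair may share fragments. Across all 48 higher genes, 44 were also higher in the cortex-like than in the middle libraries and 33 by at least 1 on the log2 scale. Of the 2733 genes at least 1 higher in the cortex-like libraries, 33 were set apart upward in the high libraries and 1 downward, and of the 241 at least 3 higher, 8 were upward and 0 downward. Of the 3328 at least 1 lower, 2 were upward and 3 downward. The cortex-like and middle libraries also differed by transcript length, with a median that ran, over 5 equal classes of genes by length, from 0.28 for the shortest transcripts to -0.71 for the longest, so a level in a cortex-like library is not a measure of pure cortex on the scale of the striatum-like ones. The high and low libraries differed little by length, with medians from -0.0049 to -0.0304. They differed by base composition, with medians from -0.0622 in the class lowest in GC content to 0.0384 in the highest class. The median GC content was 53.1% for the 48 higher genes and 46.2% for the 7 lower ones, against 49.7% for all genes. The part of base composition in the counts and in the small downward differences was not tested.

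**Figure D3:**
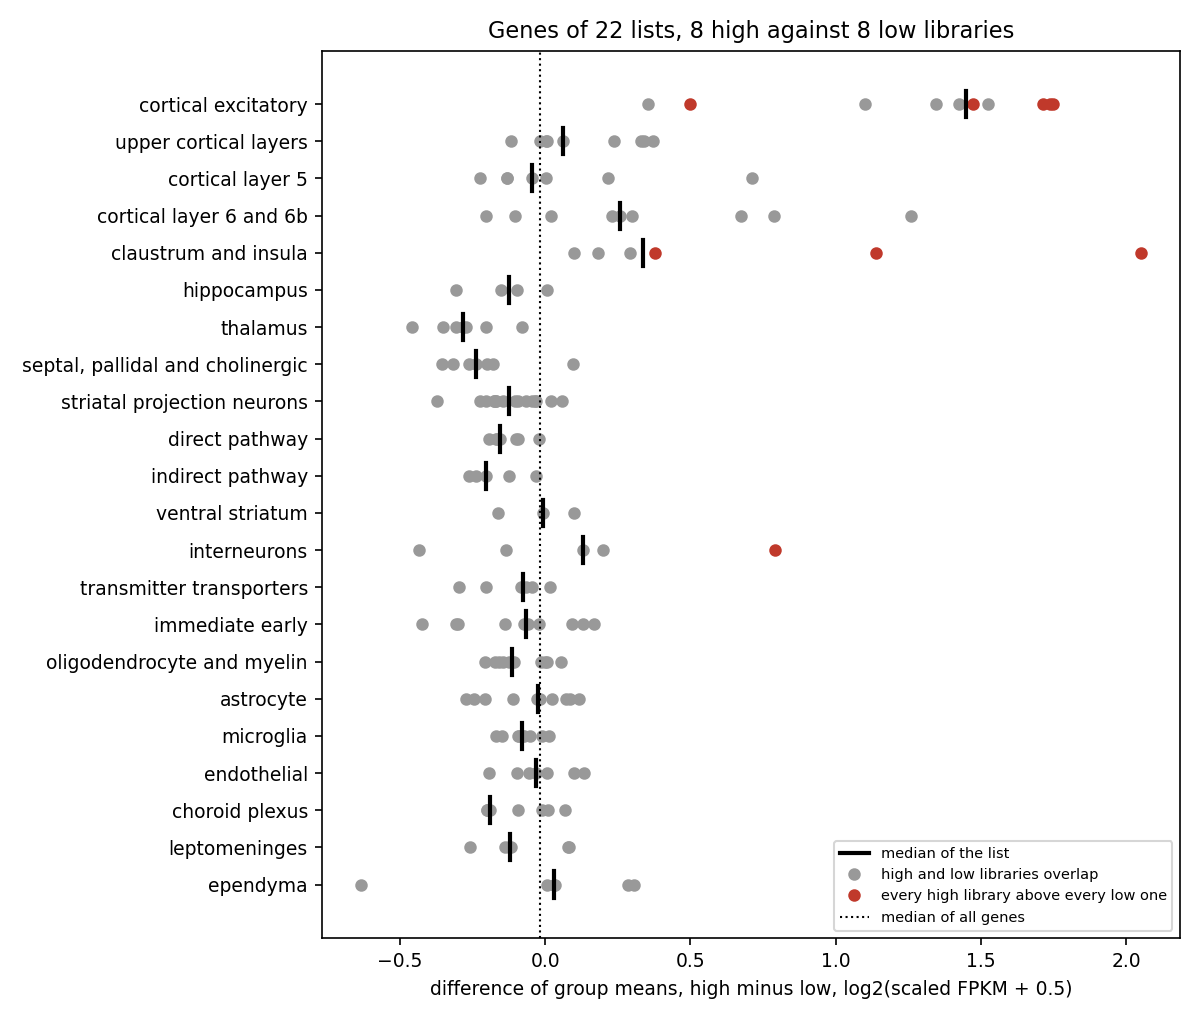
Difference of group means, high minus low, on the log2(scaled FPKM + 0.5) scale (horizontal axis) for each tested gene of the 22 lists (vertical axis). Red points are genes whose 8 high libraries all lie above the 8 low ones, grey points overlap, black bars are list medians and the dotted line is the median of all genes (-0.02). Red points occur in the cortical excitatory (5), claustrum and insula (3) and interneuron (1) lists.

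Genes of the striatum itself did not separate the groups. Of the 16 genes shared by both kinds of projection neurons, none was set apart in either direction, 14 had the lower mean in the high libraries, and the median was -0.13. Ppp1r1b, the phosphatase regulator DARPP-32, was 390, 524 and 662 FPKM in the high libraries and 394, 512 and 631 FPKM in the low ones. Ido1 had the most negative difference of the list, -0.37, and Foxp1, a transcription factor, the most positive, 0.06. All 7 direct-pathway genes had the lower mean, with a median of -0.16, and so had all 5 of the indirect pathway, with a median of -0.20. Drd1 was 32.2, 41.8 and 50.2 FPKM against 37.9, 48.3 and 58.6 FPKM, a difference of -0.19, and Drd2 was 35.4, 44.3 and 55.1 FPKM against 39.5, 55.8 and 65.7 FPKM, a difference of -0.26. Penk, the enkephalin precursor of the indirect pathway, differed by -0.13. In all these genes the ranges overlapped, and in bulk tissue fewer cells of a type and less RNA per cell cannot be told apart.

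Among interneuron genes 1 of 5 was set apart. Vip, a neuropeptide of a cortical interneuron class, was 0.558, 0.994 and 1.80 FPKM in the high libraries and 0.217, 0.346 and 0.498 FPKM in the low ones, a difference of 0.79. Sst differed by 0.20 and Npy by 0.13, and Pvalb by -0.43, with overlapping ranges. The 10 immediate early genes, which neuronal activity induces, had a median of -0.06 with 3 higher means and none set apart, from Nr4a1 at -0.42 to Fos at 0.17. Nr4a2 belongs to the same receptor family as Nr4a1, which overlapped.

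Markers of other tissue and cell types were looked at for their whole lists, and in none of these was a gene set apart. The medians were -0.11 for 11 oligodendrocyte and myelin genes, -0.02 for 10 astrocyte genes, -0.08 for 9 microglial genes, -0.03 for 7 endothelial genes and -0.19 for 9 choroid plexus genes. They were -0.12 for 6 leptomeningeal genes, 0.03 for 6 ependymal genes, -0.13 for 4 hippocampal genes, -0.24 for 7 septal, pallidal and cholinergic genes, -0.01 for 3 genes of the ventral striatum and -0.08 for 6 transmitter transporters. The summed choroid plexus level ran from 334 to 1573 FPKM in the high and from 310 to 2122 FPKM in the low libraries, so this tissue was present in both. Slc1a2, the main glutamate transporter of astrocytes, differed by 0.08.

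The thalamic list separated the high libraries among themselves. Its 7 tested genes all had the lower mean in the high group, with a median of -0.28, but their summed level ran from 16.2 to 149 FPKM in the high libraries (median 24.8) and from 17.7 to 96.7 FPKM in the low ones (median 40.3). Slc17a6, the vesicular glutamate transporter VGLUT2 of thalamic and other subcortical neurons, was 16.1 FPKM in the high library labelled cortex Δ12/Δ12 female 1 and 5.47 FPKM in the one labelled striatum Δ12/Δ12 female 1. In the other 6 high libraries it was between 1.02 and 3.12 FPKM. Tcf7l2, a transcription factor of thalamic neurons, was 13.3 FPKM in the first of these libraries. In the cortex-like libraries Slc17a6 was 3.50 to 7.74 FPKM and Tcf7l2 0 to 1.58 FPKM. Pmch, the hypothalamic precursor of melanin-concentrating hormone, was named after its values were seen. It was 23.3 and 14.0 FPKM in the high libraries labelled cortex and striatum Δ12/Δ12 female 1 and at most 0.322 FPKM in the other 6 high libraries. It reached 37.2 FPKM in the low, 58.5 FPKM in the middle and 71.8 FPKM in the cortex-like libraries.

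**Figure D4:**
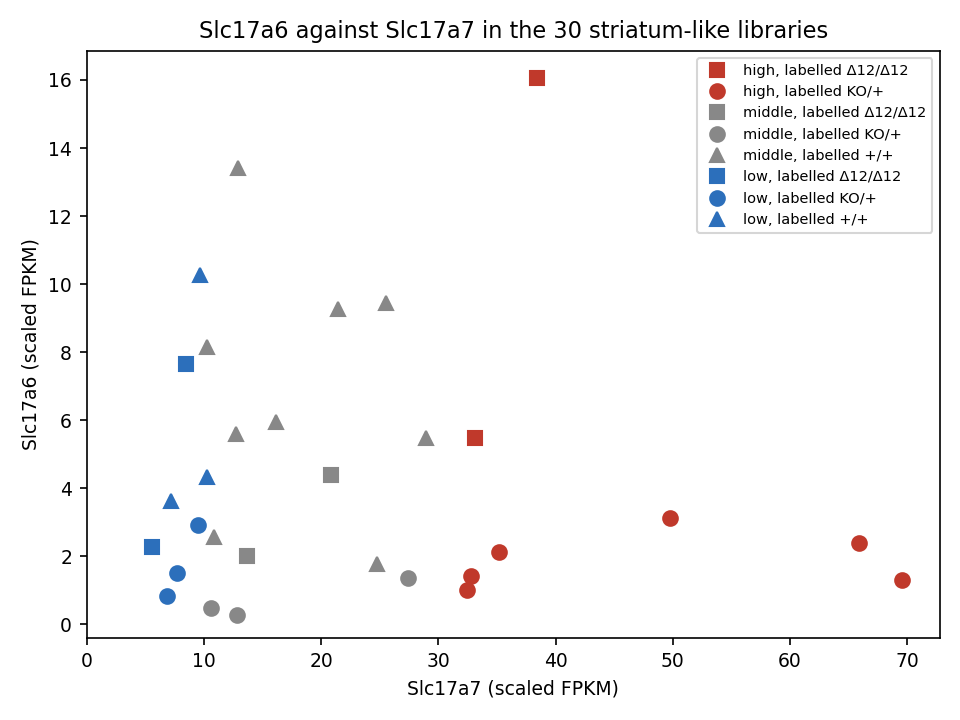
Slc17a6 (vertical axis, scaled FPKM) against Slc17a7 (horizontal axis, scaled FPKM), each point 1 of the 30 striatum-like libraries. Colours are the high, middle and low libraries and symbols the labelled genotype, and among the high libraries the 2 squares labelled Δ12/Δ12 lie above the 6 circles labelled KO/+, which reach 3.12 FPKM of Slc17a6.

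With these 2 libraries left out, a choice made once the values were known, the other 6 stood without overlap above the 8 low libraries in 81 genes and below them in 48, counts that grow in part because fewer libraries have to be separated. The cortical excitatory list then had 7 of 10 genes set apart and a median of 1.504. In the layer 6 and 6b list 2 of 9 genes were set apart upward, and in the layer 5 list 1 of 7 downward. The thalamic median was -0.66, with 0 of 7 means higher. In the striatal projection neuron list 6 of 16 means were higher and the median was -0.05. The direct and indirect pathway medians were -0.08 and -0.14, each nearer to that of all genes than with the 2 libraries kept. With the ranking repeated among the 24 libraries of the KO line alone, 38 genes were higher and 14 lower without overlap. Of the original 48 genes, 24 were again set apart, over groups that shared 6 of 8 high and 6 of 8 low libraries with the first ranking.

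Within the Ddx3y libraries, 5 of the highest Slc17a7 were compared with the 5 lowest, and the same was done within the Xist libraries, also as alternatives added after the data were seen. All 5 high Ddx3y libraries, 3 of 5 high Xist libraries and all 5 low Xist libraries were in the first groups of 8, so the direction of the 48 genes was largely set by their choice. Of the 48, the groups did not overlap in 26 within the Ddx3y and in 3 within the Xist libraries. Of all 15922 genes first tested, 232 were higher and 359 lower without overlap within the Ddx3y libraries, and 45 and 66 within the Xist libraries. More genes were thus lower than higher in both kinds, unlike in the first groups. Counts of all genes in the closing section apply the level filter anew to each set of libraries. The contrast in Slc17a7 was narrower there, from at least 32.4 against at most 20.9 FPKM in the first and from at least 12.8 against at most 8.46 FPKM in the second. Neurod6 differed by 1.49 within the Ddx3y and by 1.00 within the Xist libraries. The cortical excitatory list had all 10 means higher in both, with medians of 1.09 and 0.83. The striatal projection neuron list had 6 and 0 of 16 means higher, with medians of -0.04 and -0.15. Other lists differed in sign between the kinds of library, the thalamic list with medians of -0.68 and 0.48 and the choroid plexus list with 1.42 and -0.75. The immediate early list had medians of 0.34 and -0.27, and the myelin list -0.30 and 0.14. Within the Ddx3y libraries, 5 of 11 myelin genes and 4 of 7 septal, pallidal and cholinergic genes were set apart downward. Neither list had any within the Xist libraries. The layer 6 and 6b list (medians 0.45 and 0.01) had 4 of 9 genes set apart upward among Ddx3y and 0 among Xist libraries. For the claustrum and insula list, these were 1 and 0 of 6.

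The 7 genes set apart downward were Triqk, Tlk1, Sfr1, Psma4, Ssr1, Rims2 and Rrn3. Their differences were small, from -0.39 for Triqk to -0.13 for Rrn3. Triqk was 3.88, 4.71 and 5.18 FPKM in the high libraries and 5.58, 6.19 and 6.90 FPKM in the low ones. Tlk1, a chromatin-related kinase, was 15.3, 16.8 and 18.2 FPKM against 19.1, 20.4 and 23.1 FPKM, a difference of -0.31. Rims2, a presynaptic active zone protein, differed by -0.13 and Psma4, a proteasome subunit, by -0.18. None of the 7 was in a list, and with the values as deposited, without scaling, 0 of the 7 were set apart.

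The 14 middle libraries entered neither group, but they were ranked by the same gene, and 6 of them carry the animal number of a high or low library. Across all genes, limma's slope on Slc17a7, both as log2(FPKM + 0.5), passed a Benjamini-Hochberg-adjusted p of 0.05 in 0 of 15765 genes (0%) in either direction, while 278 slopes above 0 and 254 below 0 had an unadjusted p under 0.05. Of the 48 genes higher in the high libraries, 42 could be fitted in the middle libraries, and 42 of 42 had a slope above 0, against 48.7% of all genes. Their median slope was 0.27, and 23 of them had an unadjusted p under 0.05. With the kind of library, Ddx3y or Xist, as a covariate, 41 of the 42 slopes were above 0. Of the 7 lower genes, 6 had a slope below 0. These shares are a description, because genes are not independent replicates and the 42 are those that passed the level filter in the middle libraries too.

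Cortical excitatory genes followed Slc17a7 in the middle libraries most closely among the lists, with 10 of 10 slopes above 0 and a median of 0.56. Tbr1 had a slope of 0.97 ± 0.18 (SE, n = 14 libraries; limma, adjusted p = 0.599 over all genes), Cck 0.65 ± 0.13 (adjusted p = 0.599) and Neurod2 0.71 ± 0.17 (adjusted p = 0.797). In the claustrum and insula list, 4 of 6 slopes were above 0, with Nr4a2 at 0.81 and Ntng2 at 0.29. In the striatal projection neuron list 10 of 16 slopes were above 0 and the median was 0.01, and in the direct and indirect pathway lists the medians were -0.05 and -0.04. The thalamic list had 7 of 7 slopes above 0 with a median of 0.17, the opposite sign to its difference between the high and low libraries, and 3 of 7 with the kind of library as a covariate.

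**Figure D5:**
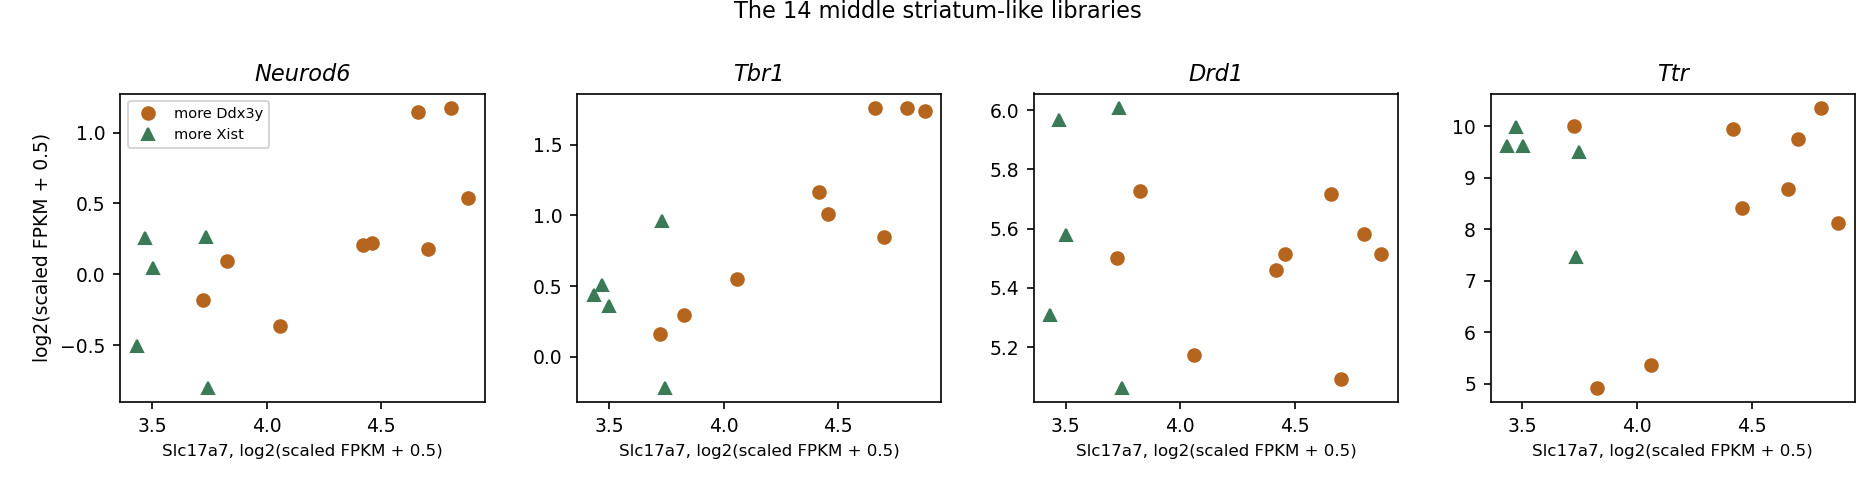
Neurod6, Tbr1, Drd1 and Ttr (vertical axes) against Slc17a7 (horizontal axes), all as log2(scaled FPKM + 0.5), in the 14 middle libraries, with circles for Ddx3y and triangles for Xist libraries. Tbr1 (r = 0.82) and Neurod6 (r = 0.66) are higher to the right, while Drd1 (r = -0.18) and Ttr (r = 0.05) are scattered.

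Single genes were also correlated with Slc17a7 over these 14 libraries, 5 relations in all, of which 4 are given. Neurod6 ran from 0.0727 to 1.76 FPKM, with Pearson's r = 0.66 (permutation p = 0.0082, two-sided) and Spearman's rho = 0.58 (permutation p = 0.032). Adjusted over the 5 relations (Benjamini-Hochberg), these permutation p-values were 0.021 and 0.08, so the rank correlation did not pass 0.05. Without the 2 libraries farthest from the median of Slc17a7, r was 0.54 over 12. Tbr1, from 0.356 to 2.90 FPKM, had r = 0.82 (permutation p = 0.00049, adjusted over the 5 relations p = 0.0024). Its rho was 0.72 (permutation p = 0.0049, adjusted p = 0.025), and its r was 0.71 without the same 2. Drd1 had r = -0.18 (permutation p = 0.53) and Ttr, the choroid plexus transthyretin, r = 0.05 (permutation p = 0.87). These p-values are not adjusted over all genes, for which no gene passed, and the genes were picked with earlier results of these data known. The 9 Ddx3y libraries reached from 12.7 to 28.9 FPKM of Slc17a7 and the 5 Xist libraries only from 10.3 to 12.9 FPKM. Within the 9 alone, r was 0.72 for Neurod6 and 0.91 for Tbr1, and 5 libraries are too few for a value within the other kind.

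Neurod6, which the ranking did not use, was finally compared across the labels of the 24 striatum-like libraries of the KO line. It was lowest at 0.265, median 1.26 and highest at 2.83 FPKM in the 12 libraries labelled KO/+ and 0.0277, 0.329 and 1.72 FPKM in the 12 labelled +/+. The ranges overlapped, and the means differed by 0.87 (two-sided permutation p = 0.0088, adjusted over the 3 labels p = 0.026). These 24 libraries carry the numbers of 12 animals, each labelled once as cortex and once as striatum, and treating them as separate makes these p-values too small if the numbers hold. With the 2 libraries of each labelled animal averaged, 6 against 6, the exact permutation p was 0.022 and the adjusted p = 0.065, so the difference did not pass. Permuted within the Ddx3y and the Xist libraries, again over single libraries, the genotype p was 0.00059 (permutation, adjusted p = 0.0018). Libraries labelled striatum and cortex differed by -0.45 (permutation p = 0.19, adjusted p = 0.19) and those labelled female and male by -0.49 (permutation p = 0.15, adjusted p = 0.19). Slc17a6, of the thalamic list, lay the other way by the same label, at 0.266, 1.40 and 3.12 FPKM in libraries labelled KO/+ and 1.78, 5.77 and 13.4 FPKM in those labelled +/+. Its level was also 3.50 to 7.74 FPKM in the cortex-like libraries, and its part in the Neurod6 difference was not tested. As labels of sex and tissue went against the transcripts in many of these libraries, the difference is one between labelled sets and is not shown to be one between genotypes.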

How the data were processed

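RNA was extracted with a column kit, depleted of rRNA, prepared as directional libraries and sequenced on a NovaSeq6000. The authors deposited 1 table of FPKM per library, normalized for transcript length and library size, with interval bounds. The submitters' processing notes name bcl2fastq 2.20, Trimmomatic 0.30, TopHat2 2.0.14, SAMtools 1.3, HTSeq 0.6.1p1 and GRCm38.p4, and the tool behind the FPKM is not given in the sources used here. Of 47597 entries, 23 were left out because at least 1 library did not give their status as OK (chosen with the values in view). FPKM was divided by a median-of-ratios factor over 13235 entries above 0 in all 60 libraries. Genes needed a mean of 0.5 FPKM. Depth was estimated from the deposited bounds of 5117 genes with 1 transcript of at least 2000 bases. The bounds give counting error only.

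Striatum-like libraries had at most 100 FPKM of Slc17a7 as deposited. A gene was called set apart when its 8 high and 8 low values did not overlap. The middle libraries were fitted with limma 3.58.1 in R 4.3.3 on log2 values, with Benjamini-Hochberg adjustment over all genes. Single genes and labels were tested with 100000 permutations in Python 3.11.15. The overlap call and the limma fit were tested on simulated data. The titles number 3 males and 3 females per group under both tissues, so libraries may share an animal, and p-values over libraries measure the spread between libraries. The genotype and sex labels were also tested over labelled animals, and this and the permutation within Ddx3y and Xist libraries were chosen with the values in view. The named genes were Neurod6, up to 4 per list, the 10 largest differences in each direction among genes set apart with a mean of at least 1 FPKM (unnamed models and small RNAs excepted), and up to 10 set apart by at least 0.5 against the sign of the cortex-like difference, and other markers were named where a sentence turned on them. The members, lists and rules were chosen with earlier results of these data known. Of 188 list entries, 4 did not match exactly 1 row and were not analysed here, among them Mbp, which had been meant as a sixth single gene. The single values of 2 other list members are not reported here.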

Additional observations from a re-analysis of the deposited data

Results flagged for a closer look

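A value was looked at again where the highest or lowest library of a group of 8 stood farther from its neighbour than Dixon's 95% limit allows. In 54 groups, 27 genes in the high and in the low libraries, this occurred 4 times, and chance gives about 1 in 20 groups. Slc17a6 was 16.069 FPKM and Tcf7l2 13.299 FPKM in the high library labelled cortex Δ12/Δ12 female 1, against 1.02 to 5.47 FPKM and 1.69 to 3.66 FPKM in the other 7 high libraries. Rtn4rl2 was 0.75109 FPKM in the low library labelled cortex KO-line +/+ male 2, against 0 to 0.308 FPKM in the other 7. Rims2 was 18.23 FPKM in the low library labelled cortex Δ12/Δ12 female 3, against 16.0 to 16.9 FPKM in the other 7. The causes of these values were not tested.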

How the results depend on the processing

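Of the 48 higher genes, 29 remained without overlap for FPKM as deposited, 39 with quantile normalization, 24 when ranked by Neurod6, 24 in the KO line alone, 20 with 10 libraries a group, 26 among the Ddx3y and 3 among the Xist libraries alone. The number of all genes higher without overlap was 28 with a minimum mean of 2 FPKM, 125 with 6 and 20 with 10 libraries a group, 232 among the Ddx3y libraries alone, 81 without the 2 high Δ12/Δ12 libraries, and 45 to 65 when 1 library was left out. The number lower without overlap, 7, was 0 for FPKM as deposited, 3 with factors from the striatum-like libraries alone, 116 with 6 and 2 with 10 libraries a group, 14 in the KO line alone, 30 when ranked by Neurod6, 361 among the Ddx3y and 65 among the Xist libraries alone, and 48 without the 2 high Δ12/Δ12 libraries. It was 7 to 29 when 1 library was left out, with 29 without the high library labelled cortex Δ12/Δ12 female 1, and it grew over 1.5 times on leaving out any 1 library other than those labelled cortex KO/+ male 3 and male 1 and striatum KO/+ female 3 and female 1. Smaller groups separate more easily, and the cause of the other changes was not tested. The Neurod6 difference was 2.77 with a pseudocount of 0.1, 1.24 with 1, 1.00 among the Xist libraries alone, and 1.66 to 1.85 when 1 library was left out. No gene passed limma's adjusted threshold in the middle libraries under any alternative.

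Libraries with the same labelled tissue, sex and number in the 2 genotypes of the KO line did not deviate together in any of 12 pairs (r from -0.19 to 0.07), so the numbers were not taken as pairs. In the replicate block, labels were permuted only within blocks formed with these numbers, although the pairs across genotypes did not deviate together. The Neurod6 difference by genotype, 0.87, then had an exact permutation p = 0.016 (adjusted p = 0.047), again over single libraries. The differences by tissue (-0.45) and by sex (-0.49) had an exact permutation p = 0.13 each (adjusted p = 0.13). Averaged over labelled animals, an alternative chosen with the values in view, the genotype difference of 0.87 had an adjusted p = 0.065 (exact permutation). For FPKM as deposited the genotype difference was 0.76 (permutation, adjusted p = 0.049). The interval bounds limit what depth allows for genes near 0, such as Neurod6 in the low libraries.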

Other observations

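Other thalamic genes went with the labelled genotype of the striatum-like KO-line libraries in the same way as Slc17a6, a pattern noticed after the values were seen and given without a test. Prkcd, a protein kinase strong in thalamic relay neurons, was lowest at 2.26, median 7.53 and highest at 17.4 FPKM in the 12 libraries labelled KO/+ and 6.06, 27.3 and 49.4 FPKM in the 12 labelled +/+. Shox2, a homeobox gene of the thalamus, was 0.222, 0.628 and 2.61 FPKM against 0.508, 2.88 and 5.98 FPKM. Tcf7l2 was 1.38, 2.30 and 3.66 FPKM against 2.10, 5.24 and 8.89 FPKM. The ranges overlapped for each gene. Slc17a7 itself was 6.86, 29.9 and 69.6 FPKM in the libraries labelled KO/+ and 7.15, 12.8 and 28.9 FPKM in those labelled +/+.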
